A study of Mus musculus with 24 samples.

Results

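Transcripts of 33 genes of DNA replication and mitosis were followed in the liver and 3 segments of the small intestine of wild-type and Casp1-null mice. The genes were chosen by name as markers of proliferating cells, without a measured value in the rule, but with earlier results of these data known. Where a gene had several probe sets, the brightest one on average was read. Of the 33 genes, 28 were measured, out of 18820 genes with a probe set of their own. Tyms, Kif20a, Nusap1 and Ube2c were found only on probe sets that list several genes, and Ccnb1 was not analysed here. The measured genes were 12 of replication licensing and S phase, 8 cyclins and mitotic kinases, and 8 of the spindle, the chromosomes and mitotic exit.

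The series is about caspase-1, the protease of inflammasomes, and fat handling by intestine and liver. It holds 24 Affymetrix whole-transcript arrays, with 3 arrays for each of 8 groups of tissue and genotype. Controls were wild-type C57Bl/6J males, and the others were males carrying a Casp1-null allele that had been bred onto C57Bl/6 for 10 generations. Both genotypes were 14 to 16 weeks old and ate standard chow. Liver was taken after a fast of 16 h. Duodenum, jejunum and ileum were taken from mice that had fasted overnight, then received 200 µL of olive oil into the stomach and were killed 2 h later. All intestinal groups therefore had the oil load and no liver group had it. The intestinal samples were scrapings of the epithelial layer. RNA had an integrity number above 8.0, and 100 ng was labelled per array. Arrays of the Casp1-null background with an intact Casp1 gene were not analysed here, so genotype and strain background cannot be told apart. The labels number the replicates but do not say which arrays share a mouse, so p-values measure only the spread between these samples, which may be technical.

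The epithelium of the small intestine is renewed from crypts, where stem cells and their transit-amplifying daughters divide, and cells stop dividing as they move onto the villus. Entry into S phase needs the Mcm helicase, which Cdc6 and Cdt1 load onto origins, and a supply of deoxynucleotides from ribonucleotide reductase. Transcripts of mitotic regulators peak later, in G2 and mitosis, so they are used as markers of cycling cells. Hepatocytes of a healthy adult liver seldom divide. In RNA from whole scrapings, fewer cells of a type and less RNA per cell cannot be told apart.

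Promoter sequences of 24 of the measured genes were found in RefSeq's table for mouse GRCm38.p6. The following 5 are shown because the results turn on these genes and because they let a reader see where the patterns counted next do and do not occur. Each is the 100 bases before the annotated start, read 5′ to 3′ on the gene's strand. Capitals mark TTTGAA, the core of the cell cycle genes homology region, CCAAT, and the E2F-type pattern TTTNNCGC, each on either strand. The promoter of Cdk1, the kinase that drives entry into mitosis, lies at chr10:69352913-69353012 (minus strand). That of Top2a, the topoisomerase that untangles replicated chromosomes, lies at chr11:99024190-99024289 (minus strand). Cdc20, the activator of the anaphase-promoting complex, starts at chr4:118437344-118437443 (minus strand). Mcm6, a helicase subunit, has chr1:128359706-128359805 (minus strand), and Rrm2, the small subunit of ribonucleotide reductase, has chr12:24708154-24708253 (plus strand).
Cdk1: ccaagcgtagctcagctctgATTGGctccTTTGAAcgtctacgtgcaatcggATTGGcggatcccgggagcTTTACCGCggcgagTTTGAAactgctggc
Top2a: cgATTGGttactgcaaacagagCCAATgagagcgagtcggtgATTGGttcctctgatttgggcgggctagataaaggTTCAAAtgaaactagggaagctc
Cdc20: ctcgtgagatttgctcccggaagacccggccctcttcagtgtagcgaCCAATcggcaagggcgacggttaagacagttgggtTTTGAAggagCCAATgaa
Mcm6: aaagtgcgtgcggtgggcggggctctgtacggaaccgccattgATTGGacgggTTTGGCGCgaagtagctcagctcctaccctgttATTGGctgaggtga
Rrm2: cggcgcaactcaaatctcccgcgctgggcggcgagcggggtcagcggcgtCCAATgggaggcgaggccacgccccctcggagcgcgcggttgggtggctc

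Each pattern was searched on its own over 300 bases, 250 before and 50 after the start, on both strands, and overlap with another pattern was allowed. TTTGAA was present in 10 of the 13 cyclin, kinase and spindle promoters (76.9%) and in 1 of the 11 replication promoters (9.09%), against 18.1% of 27025 promoters of all genes. CCAAT was present in 20 of the 24 (83.3%), against 37.9% of all. TTTNNCGC was present in 6 of the 11 replication promoters (54.5%), in 1 of the 13 mitotic promoters (7.69%) and in 5.27% of all. These are matches of letters and were not shown to be binding sites.

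Values are log2 levels normalized by the authors with RMA, so a difference of 1 is a 2-fold difference. Levels of different genes are not compared, since each probe set has its own response. Arrays of a group correlated with Pearson's r of 0.9787 to 0.9926 across probe sets. The median of an array was 4.874 to 5.005 for intestine and 5.187 to 5.224 for liver. A group mean under the lowest of these medians was read as not shown above background, and a fold against such a mean is given as a lower bound. Casp1 was 8.26 to 9.95 on the 9 wild-type intestinal arrays and 5.82 to 7.8 on the 9 Casp1-null ones, while in liver the genotypes overlapped (4.22 to 4.6 and 3.8 to 4.27), so it checked only the intestinal labels. The epithelial marker Epcam was 12.05 to 12.51 in intestine, the duodenal factor Pdx1 was 9.73 to 10.26 in duodenum and at most 5.41 elsewhere, and the ileal bile acid transporter Slc10a2 was 11.46 to 11.77 in ileum and at most 9.35 elsewhere. The hepatocyte marker Alb was 13.42 to 13.52 in liver.

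Some arrays stood apart in markers of other cells. The mean of 16 smooth muscle markers was 9.29 on ileal wild-type array 2 and 8.56 on ileal Casp1-null array 3, against 4.63 to 4.85 on the other 4 ileal arrays. Duodenal wild-type array 1 had a mean of 10.6 for 10 exocrine pancreas markers, against 4.96 to 5.3 on the other duodenal arrays. B cell markers had a mean of 6.47 on jejunal wild-type array 1, and lay between 4.18 and 5.73 on the other jejunal arrays. They stood at 5.66 on a second jejunal wild-type array and at 5.73 on a Casp1-null one. In ileum they reached 5.51 in wild type and 5.42 in Casp1-null, against 4.28 to 4.45 in duodenum. The main counts of called genes are given with and without the ileal arrays with muscle, duodenal wild-type array 1 and jejunal wild-type array 1.

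Proliferation transcripts were highest in the ileum. From jejunum to ileum, averaged over both genotypes, 24 of the 28 genes rose and none fell, with a median difference of 1.10 over all 28. Limma, with Benjamini-Hochberg adjustment over all 35556 probe sets and a threshold of 0.05, called 14.1% of all 18820 genes higher and 11% lower in this comparison. The groups did not overlap for 18 of the 28, all higher in ileum, against 7.02% of all genes. From duodenum to ileum 23 rose and none fell, with a median of 1.54, where 18.7% of all genes were called higher and 18.4% lower. For 21 the groups did not overlap, against 10.4% of all genes. The share called exceeded the share over all genes in both comparisons.

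**Figure D1:**
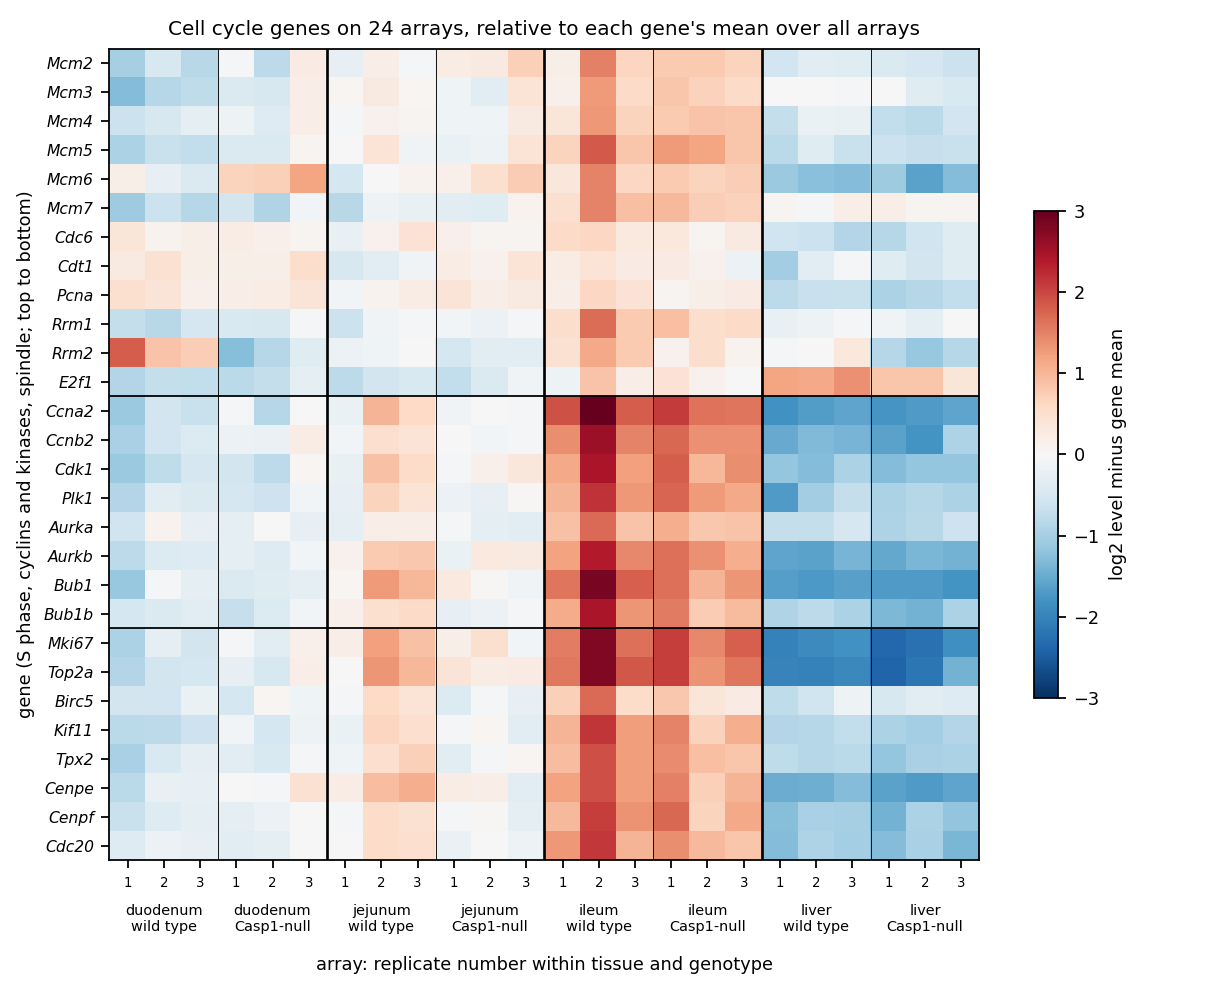
Log2 level of the 28 measured genes (rows, by role) on each of the 24 arrays (columns, by tissue, genotype and replicate), minus the gene's mean over all arrays; red is above that mean and blue below it. The 6 ileal arrays are red for nearly all genes, ileal wild-type array 2 most of all, and the liver arrays are blue for the cyclins, kinases and spindle genes.

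All 8 cyclins and mitotic kinases rose in both comparisons, with medians of 1.26 from jejunum to ileum and 1.96 from duodenum to ileum. Ccna2 encodes cyclin A2, which acts in S phase and at entry into mitosis. Its level was 5.7 to 6.8 in duodenum (median 6.19), 6.62 to 7.84 in jejunum (median 6.79) and 8.42 to 9.79 in ileum (median 8.67, n = 6 arrays per segment). Every ileal array was above every jejunal and duodenal array. The rise from duodenum to ileum was 5.86-fold (log2 2.55, SE 0.237, limma adjusted p = 8.63e-07), and that from jejunum 3.47-fold (log2 1.79, SE 0.237).

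Ccnb2, a mitotic cyclin B, was 6.43 to 7.63 in duodenum (median 7.11), 7.33 to 7.92 in jejunum (median 7.4) and 8.78 to 9.99 in ileum (median 8.86). It was 4.04-fold higher in ileum than in duodenum (log2 2.01, SE 0.184, limma adjusted p = 7.32e-07). Cdk1 was 5.31 to 6.5, 6.2 to 7.3 and 7.43 to 8.87 in the same order, with ileum above both other segments on every array. Plk1, a kinase of centrosome maturation and mitotic progression, rose 3.76-fold from duodenum to ileum. Aurka, the kinase of spindle poles, rose 2.37-fold and Aurkb, the kinase of the chromosomal passenger complex, 3.75-fold. The spindle checkpoint kinase Bub1 rose at least 3.08-fold, from a duodenal mean under the array median, and its partner Bub1b rose 3.42-fold. Jejunal and ileal Bub1 overlapped, since jejunal wild-type array 2 stood at 6.07 and ileal Casp1-null array 2 at 5.81.

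All 8 spindle, chromosome and exit genes also rose, with medians of 1.17 from jejunum and 1.63 from duodenum to ileum. The size of the latter is not settled, since Birc5, Tpx2, Cenpe and Cenpf had duodenal means under the array median. Mki67, which encodes the proliferation antigen Ki-67, was 5.8 to 6.92 in duodenum (median 6.44), 6.68 to 7.98 in jejunum (median 7.1) and 8.19 to 9.53 in ileum (median 8.49). It rose 4.63-fold from duodenum to ileum (log2 2.21, SE 0.226, limma adjusted p = 2.33e-06) and its ileal arrays lay above all others. Top2a, whose promoter is printed above, was 5.41 to 6.48, 6.27 to 7.62 and 7.64 to 9.06 in duodenum, jejunum and ileum. Its rise from duodenum to ileum was 4.87-fold (log2 2.28, SE 0.235). The other Top2a probe sets, at 2.19 to 3.52 on all arrays, had r of 0.681 and -0.0862 with the chosen one over the 24 arrays.

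Cdc20 was 5.37 to 5.76 in duodenum, 5.56 to 6.29 in jejunum and 6.58 to 7.87 in ileum, and rose 2.85-fold from duodenum to ileum. The spindle motor Kif11 rose 3.45-fold and Tpx2, which activates Aurora A on microtubules, at least 3.01-fold. The other Kif11 probe set, at 2.2 to 3.78 on all arrays, had r of 0.646 with the chosen one over the 24 arrays. The kinetochore proteins Cenpe and Cenpf rose at least 2.17-fold and 2.40-fold. Birc5, the survivin subunit of the passenger complex, rose at least 1.74-fold from duodenum. Its jejunal and ileal ranges overlapped, at 4.54 to 5.55 and 5.19 to 6.65, and its call from jejunum to ileum held in 16 of 23 alternatives. Among the losses were those without jejunal wild-type array 1 (limma adjusted p = 0.0529) and without ileal Casp1-null array 1 (0.0515).

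The replication genes were divided. From jejunum to ileum 8 of 12 rose, with a median of 0.69, and from duodenum to ileum 7 of 12, with a median of 1.01. Among helicase subunits, Mcm5 was 5.33 to 6.37 in duodenum, 6.07 to 6.69 in jejunum and 6.95 to 8.13 in ileum. It rose 3.09-fold from duodenum to ileum (log2 1.63, SE 0.192, limma adjusted p = 9.56e-06). Mcm2, Mcm4 and Mcm7 rose from duodenum to ileum as well, by log2 1.24, 1.08 and 1.56, and Mcm3 rose at least 2.27-fold, from a duodenal mean under the array median. The Mcm3 call from jejunum to ileum (log2 0.63, limma adjusted p = 0.0251) held in 11 of 23 alternatives. It was lost without both arrays with muscle (0.0691) and without ileal wild-type array 2 alone (0.0599). Leaving out jejunal wild-type array 1 also ended the Mcm3 call (limma adjusted p = 0.0538). Mcm6 was 6.51 to 8.12 in duodenum, 6.41 to 7.71 in jejunum and 7.29 to 8.44 in ileum, so all 3 ranges overlapped. It was not called from duodenum to ileum (log2 0.43, SE 0.189, limma adjusted p = 0.0965) and was called from jejunum to ileum (log2 0.62, adjusted p = 0.0313). That call held in 12 of 23 alternatives. Among the losses were those without ileal wild-type array 2 (log2 0.45, limma adjusted p = 0.0676), without ileal Casp1-null array 1 (0.0623) or 3 (0.0575), and without both arrays with muscle (0.105). It was also lost without jejunal wild-type array 1 (0.0862) or jejunal Casp1-null array 1 (0.0778) or 2 (0.0551).

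Rrm1, the large subunit of ribonucleotide reductase, rose 2.51-fold from duodenum to ileum, and the transcription factor E2f1 at least 1.59-fold. The loading factors Cdc6 and Cdt1 were called in neither comparison. Cdc6 was 5.38 to 5.66 in duodenum, 5.07 to 5.72 in jejunum and 5.38 to 5.9 in ileum, and its differences of 0.25 from jejunum (SE 0.0979, limma adjusted p = 0.0838) and 0.17 from duodenum missed the threshold. Cdt1 differed by 0.20 (SE 0.0984) from jejunum and -0.12 from duodenum. Pcna, the sliding clamp of DNA polymerases, was 9.9 to 10.23 in duodenum and 9.82 to 10.36 in ileum, a difference of -0.02 (SE 0.0848, adjusted p = 0.89). Pcna is read by 2 probe sets whose levels differ by at most 0.0139 on any array. Rrm2 was called from jejunum to ileum (log2 0.77, SE 0.187, limma adjusted p = 0.00777) but not from duodenum to ileum (log2 0.37, adjusted p = 0.151), where the duodenal arrays ran from 5.14 to 8.22.

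**Figure D2:**
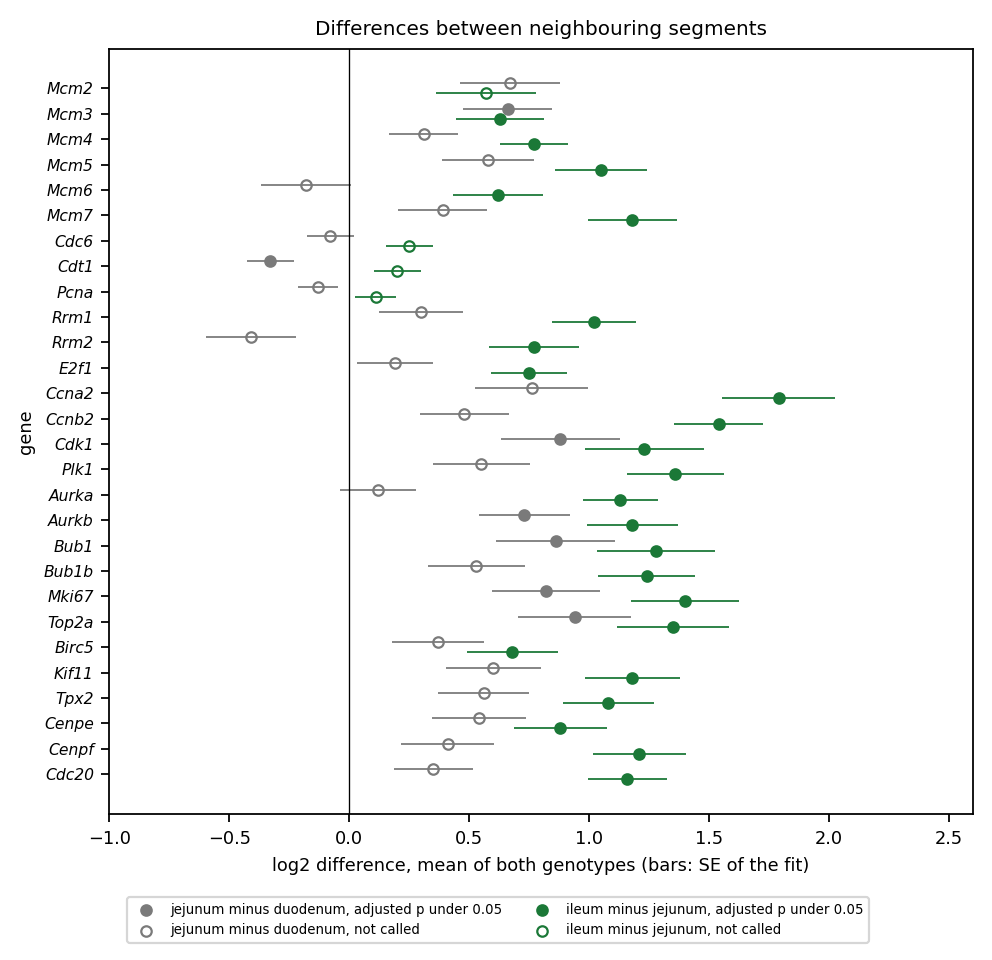
Log2 difference between neighbouring segments for each of the 28 genes, averaged over both genotypes, with bars for the standard error of the fit; filled points were called by limma (adjusted p under 0.05) and open points were not. From jejunum to ileum (green) all 28 differences are above 0 and 24 are filled, whereas from duodenum to jejunum (grey) 7 are filled, that of Cdt1 being below 0.

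Fewer genes were called from duodenum to jejunum. Of 28 genes 6 rose, namely Top2a, Aurkb, Mki67, Mcm3, Cdk1 and Bub1, and Cdt1 fell, where limma called 6.83% of all genes higher and 7.8% lower. The median was 0.50, and for no gene were the 2 segments apart on all arrays (3.41% and 4.74% of all genes, higher and lower). Top2a differed most, by log2 0.94 (SE 0.235, limma adjusted p = 0.0169), and Cdt1 by -0.33 (SE 0.0984, adjusted p = 0.0454). The Top2a call held in 21 of 23 alternatives and the Cdt1 call in 10, and Cdt1 differed by -0.04 in Casp1-null alone. This count depended on single arrays. It was 1 without duodenal wild-type array 1, duodenal Casp1-null array 2 or jejunal wild-type array 2. It was 2 without jejunal wild-type array 3 or Casp1-null array 2, 3 without duodenal Casp1-null array 1, 4 without jejunal Casp1-null array 1 or 3, and 11 without jejunal wild-type array 1. In wild type alone 11 were called, 9 higher and 2 lower (Cdt1 and Rrm2), with a median of 0.80 and 7.76% of all genes called. In Casp1-null alone 0 were called, with a median of 0.20 and 5.85% of all genes called. The interaction of genotype and segment was called for 0 of 28 genes by limma's moderated F test, with 5 at an unadjusted p under 0.05 (0.117% and 5.56% of all genes). The difference between the genotypes in this step was thus not shown. From jejunum to ileum 22 were called in wild type and 18 in Casp1-null alone, with medians of 1.11 and 1.12, and from duodenum to ileum 24 and 23, with medians of 1.85 and 1.30.

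**Figure D3:**
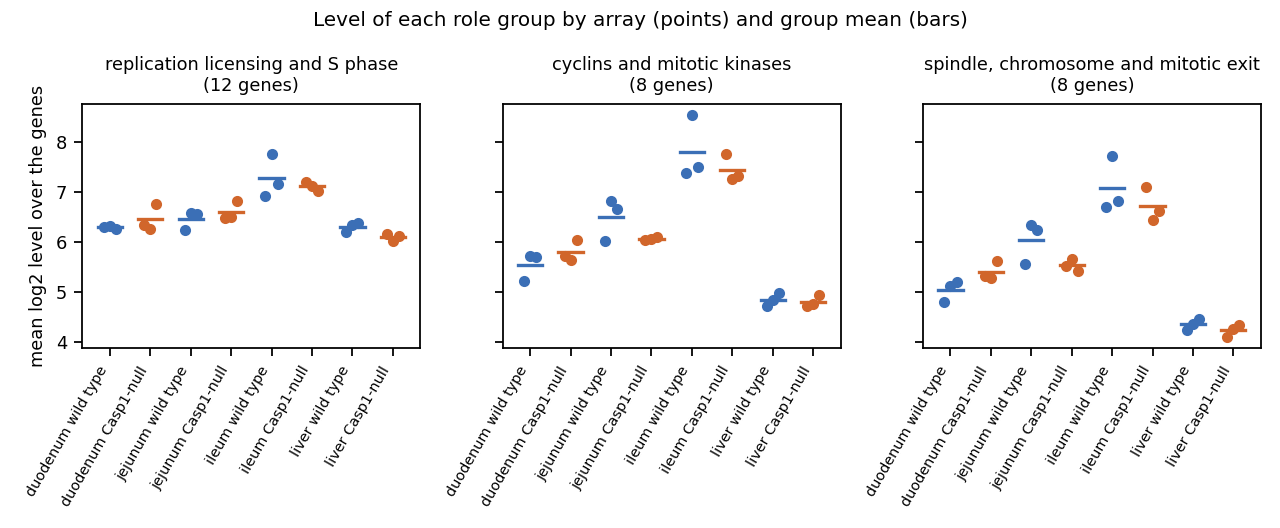
Mean log2 level over the genes of each role, on every array (points) and as the mean of the 3 arrays of each group (bars), for wild type (blue) and Casp1-null (orange). Ileal arrays are highest in each panel, and the jejunal wild-type arrays spread more widely than the Casp1-null ones for cyclins, kinases and spindle genes.

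Most markers of crypt cells were higher in ileum than in jejunum, as these genes were. Of 15 markers of crypt stem cells, 10 rose from jejunum to ileum and 0 fell, with a median of 0.76, and 5 of 6 Paneth cell markers rose, with a median of 1.31. Of 17 markers of villus enterocytes 12 fell and 1 rose. Sizes differed, as the jejunal and ileal medians were 12.63 and 7.3 for Lct and 12.7 and 10.11 for Fabp1. They were 12.58 and 12.44 for Vil1, 13.22 and 13.2 for Anpep, and 11.6 and 12.32 for Mep1a. Whether segment or villus content sets these values was not tested. Of all genes, 14.1% were called higher and 11% lower in this comparison. The mean of the stem cell markers was 6.02 to 6.82 in duodenum, 6.01 to 6.81 in jejunum and 6.9 to 7.97 in ileum. Lgr5, the defining stem cell marker, was 4.27 to 5.24, 4.31 to 5.52 and 5.91 to 7.86 in the same order, and 6.32 to 8.68 in liver. Its duodenal and jejunal medians (4.53 and 4.72) were under the lowest array median. Ascl2, the stem cell transcription factor, was 4.8 to 5.56 in ileum and at most 4.53 elsewhere in intestine, under the lowest array median. Rnf43, on the same list, went the other way, with 8.39 to 9.51 in duodenum, 7.29 to 8.29 in jejunum and 7.42 to 8.22 in ileum. Over the 18 intestinal arrays the mean of the 28 genes had Pearson's r of 0.94 with the stem cell marker mean, 0.91 with Paneth cells, -0.89 with villus enterocytes and 0.54 with smooth muscle. These arrays share the segment differences and their total RNA. Taken as deviations from the 6 group means, the values were 0.89, 0.66, -0.69 and 0.47. In deviations the other marker lists ran from -0.69 for T and NK cells to 0.57 for enteric neurons and glia. Among them were epithelium at -0.55, germinal centre at -0.42 and fibroblasts at 0.33.

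With the stem cell marker mean as a covariate in the fit, an alternative added after the data had been seen, 1 of the 28 genes was called from jejunum to ileum (Ccnb2, log2 0.76, limma adjusted p = 0.0381) in place of 24. The median was 0.29 in place of 1.10, and 8.01% of all genes were called. Without the covariate, the median standard error of the 28 genes was 0.19, and with it 0.211, while over all genes it went from 0.0948 to 0.152. From duodenum to ileum 6 were called, with a median of 0.68, 5 of them higher (Ccna2, Ccnb2, Aurkb, Mki67 and Top2a) and Mcm6 lower, where 13.2% of all genes were called. Both counts moved when single arrays were left out. The first stayed at 1 without duodenal wild-type array 1 or 3, jejunal Casp1-null array 1 or 2, ileal wild-type array 2 or 3 or ileal Casp1-null array 3, and was 0 without any other. The second was 0 without duodenal Casp1-null array 3 or ileal wild-type array 1, 3 without duodenal wild-type array 1 or ileal wild-type array 3, 4 without ileal wild-type array 2, duodenal Casp1-null array 1 or 2, jejunal wild-type array 3 or Casp1-null array 1 or 3, and 5 to 7 otherwise. With the smooth muscle marker mean as the covariate, 21 and 23 were called, with medians of 1.00 and 1.43. The list of stem cell markers holds none of the 28 genes, but it holds Cdca7, which is named for the cell division cycle. The stem cell marker mean did not overlap between ileum (6.9 to 7.97) and jejunum (6.01 to 6.81) or duodenum (6.02 to 6.82). The fit with this covariate therefore cannot tell the stem cell markers from the segment.

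The ileal arrays with muscle signal differed from each other in these transcripts. On wild-type array 2, whose smooth muscle myosin Myh11 stood at 10.7, all 28 genes lay above the range of the 4 ileal arrays without muscle signal. The excess over their mean had a median of 0.90 and ran from 0.21 for Cdt1 to 1.33 for Bub1. On Casp1-null array 3, with Myh11 at 9.9, 0 of 28 lay above that range, 7 lay below and 21 within, with a median of -0.12 (-0.40 for Cdt1 to 0.16 for Mcm4). Of the 2 arrays with muscle signal, the wild-type one was thus high in cell cycle transcripts and the Casp1-null one was not.

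Mki67 was 8.29, 9.53 and 8.42 on ileal wild-type arrays 1, 2 and 3, and 8.83, 8.19 and 8.56 on the Casp1-null arrays. Bub1b was 6.57, 7.91 and 6.78 in wild type and 7.03, 6.24 and 6.42 in Casp1-null. The replication gene Rrm1 was 7.77, 8.94 and 8.04 in wild type and 8.16, 7.77 and 7.83 in Casp1-null. In each case wild-type array 2 was highest and Casp1-null array 3 lay among the arrays without muscle. Wild-type array 2 was also highest of the 6 ileal arrays for 11 of 15 stem cell and 5 of 6 Paneth cell markers, and lowest for 14 of 17 villus markers. Its stem cell marker mean was 7.97, against 7.38 on Casp1-null array 3 and 6.9 to 7.37 on the other 4. The arrays with muscle signal differed in other cells too. Enteric neuron and glia markers had a mean of 5.1 on wild-type array 2, against 4.46 on Casp1-null array 3 and 4.35 to 4.46 on the other 4. Endothelial markers stood at 5.19 and 5.74 on these arrays, and fibroblast markers at 6.64 and 6.82. Over the 18 intestinal arrays the neuron and glia mean had r of 0.57 with the mean of the 28 genes, both as levels and as deviations. The part of these cells in the result was not tested.

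**Figure D4:**
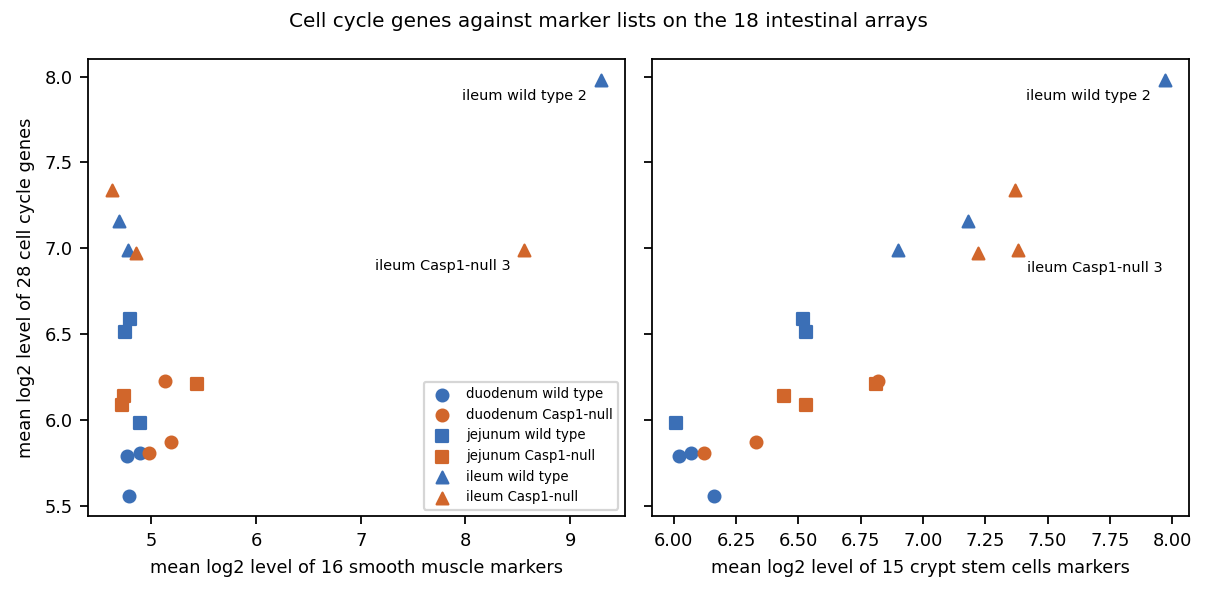
Mean log2 level of the 28 genes on each of the 18 intestinal arrays against the mean of 16 smooth muscle markers (left) and of 15 crypt stem cell markers (right); shapes give the segment and colours the genotype. The 2 ileal arrays with muscle signal lie far to the right in the left panel at means of 7.98 and 6.99 for the 28 genes, and in the right panel wild-type array 2 lies at the top right.

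In a fit of each gene on the smooth muscle marker mean within the 6 intestinal groups, limma called 0 of the 28 genes, with 2 at an unadjusted p under 0.05, Mcm4 and Mcm6. The slopes ran from -0.01 to 0.16 per log2 unit of marker, with a median of 0.10, and 5.96% of all genes were called (20.5% at an unadjusted p under 0.05). The median slope was -0.04 without ileal wild-type array 2 and 0.21 without ileal Casp1-null array 3. With that array or Casp1-null array 1 left out, 1 gene was called. On the stem cell marker mean, also added after the data had been seen, 15 of 28 were called, all with positive slopes and a median of 0.88 per unit (2.96% of all genes called with a positive slope, and 23.4% at an unadjusted p under 0.05 in either direction). That count was 0 without ileal wild-type array 2, with all 28 slopes still positive, a median of 0.65 and 17 at an unadjusted p under 0.05. It was 4 without ileal wild-type array 1 and 7 without duodenal Casp1-null array 3. Jejunal wild-type array 1 left out gave 10, and the other 14 arrays gave 12 to 17. On Paneth and villus marker means limma called 0 of 28 (0.335% and 0.00531% of all genes), with 17 and 18 at an unadjusted p under 0.05 (18.8% and 13.1% of all genes).

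Leaving out both ileal arrays with muscle, 22 of 28 genes were still called from jejunum to ileum (median 1.00) and 23 from duodenum to ileum (median 1.43). Without jejunal wild-type array 1, 21 were called from jejunum to ileum (median 1.03). Without duodenal wild-type array 1, 24 were called from duodenum to ileum (median 1.5). Other arrays also stood apart within their segment. Duodenal Casp1-null array 3 was highest of the 6 duodenal arrays for 21 of 28 genes, 10 of 15 stem cell and 5 of 6 Paneth cell markers, and lowest for 11 of 17 villus markers. Duodenal wild-type array 1, with the pancreatic signal, was lowest for 20 of 28 genes. In jejunum, Casp1-null array 3 was highest for 9 of 15 stem cell and 5 of 6 Paneth cell markers and for 8 of the 28 genes. It was also highest for 12 of 16 smooth muscle markers (mean 5.44) and lowest for 9 of 17 villus markers. Jejunal wild-type array 1, with the highest B cell signal, was lowest for 11 of the 28 genes.

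Between genotypes, Rrm2 was the only one of the 28 genes called with all arrays and probe sets. It was lower in Casp1-null duodenum and liver. In duodenum Rrm2 was 8.22, 7.28 and 7.15 on the wild-type arrays and 5.14, 5.57 and 6.06 on the Casp1-null arrays, with no overlap. It fell 3.89-fold (log2 -1.96, SE 0.264, limma adjusted p = 0.00113), where 0.606% of all genes were called lower and 11.1% did not overlap as lower. Without duodenal wild-type array 1, the highest one, the difference was -1.63 (limma adjusted p = 0.00273). In a fit on the 6 duodenal arrays alone it missed the threshold (adjusted p = 0.0669).

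In liver Rrm2 was 6.37, 6.4 and 6.74 in wild type and 5.56, 5.27 and 5.55 in Casp1-null mice, again with no overlap. It fell 2.07-fold (log2 -1.05, SE 0.141, limma adjusted p = 0.0337), where 0.526% of all genes were called lower. The call was lost without wild-type array 1 (adjusted p = 0.0947), 2 (0.119) or 3 (0.0993) or Casp1-null array 2 (0.113) or 3 (0.089), with differences of -0.93 to -1.11. With the replicate number as a block in the fit, Rrm2 also missed the threshold in liver (limma adjusted p = 0.0836). In jejunum it was 6.25, 6.29 and 6.4 against 5.88, 6.09 and 6.08, apart on all arrays but not called (log2 -0.30, SE 0.264, adjusted p = 0.793). In ileum it was 6.88, 7.55 and 7.2 against 6.55, 6.94 and 6.52, with overlap (log2 -0.54, SE 0.264, adjusted p = 0.798). Over the mean of the segments with the same number it was lower by log2 -0.93 (SE 0.115, limma adjusted p = 0.0118, 1.08% of all genes called lower). That call was lost without the wild-type arrays numbered 1 (0.0547) or 2 (0.0561), and with the replicate block (0.074). Whether the difference depends on the segment was not shown after adjustment (moderated F 11.5, unadjusted p = 0.000958, adjusted p = 0.334). Its partner Rrm1 differed by 0.36, 0.16, -0.33 and 0.02 in duodenum, jejunum, ileum and liver, none of them called.

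**Figure D5:**
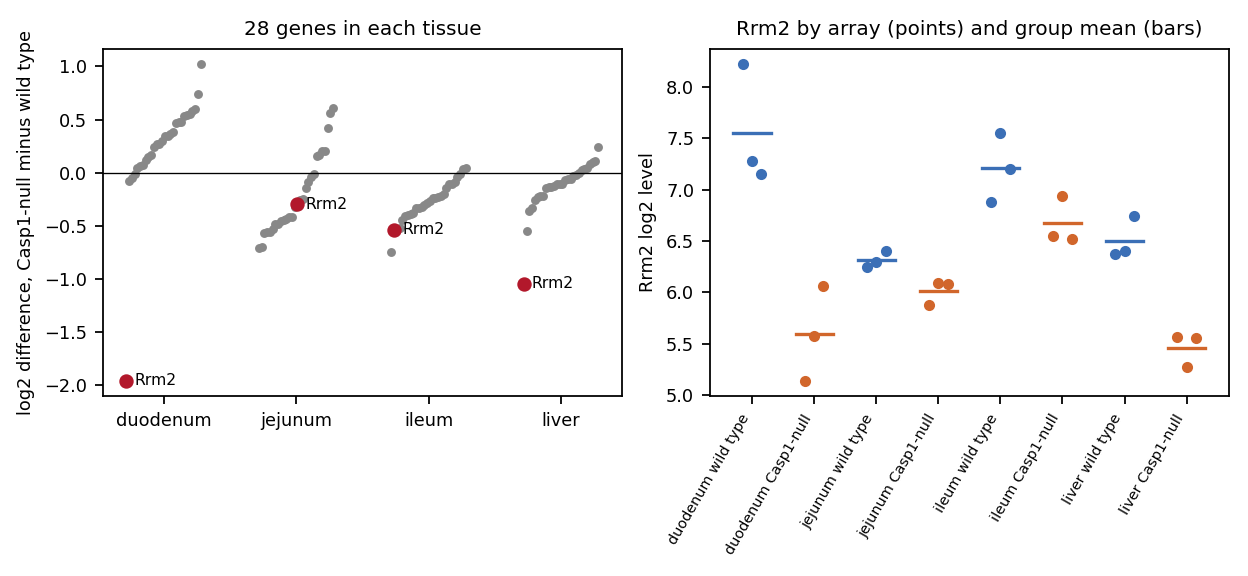
Left, log2 difference of Casp1-null minus wild type for each of the 28 genes in each tissue, sorted by size, with Rrm2 in red; right, log2 level of Rrm2 on every array (points) with the mean of 3 arrays (bars). Rrm2 lies apart from the other genes in duodenum and liver, at -1.96 and -1.05, and within their range in jejunum and ileum.

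The other 27 genes were not called between genotypes in any tissue with all arrays and probe sets. In duodenum 24 of 28 differences were positive, with a median of 0.32, and for 10 the Casp1-null arrays all lay above the wild-type arrays (11.6% of all genes). Mcm6 was 7.13, 6.69 and 6.51 in wild type and 7.61, 7.67 and 8.12 in Casp1-null, a difference of 1.02 that missed the threshold (SE 0.267, limma adjusted p = 0.101) and passed it when both ileal arrays with muscle were left out of the shared fit (adjusted p = 0.0366). The median over the 28 was 0.20 without duodenal wild-type array 1, the lowest for 20 of them, and 0.19 without Casp1-null array 3, the highest for 21. Stem cell markers had a median difference of 0.37 in the same comparison, with 0 of 15 called, and their part in the result was not tested. Markers of other cells lay higher in Casp1-null duodenum without overlap. Their means per array went from 5 to 5.15 up to 5.56 to 5.81 for fibroblasts and from 4.21 to 4.31 up to 4.58 to 4.93 for endothelium. Smooth muscle went from 4.77 to 4.89 up to 4.98 to 5.19, enteric neurons and glia from 4.23 to 4.36 up to 4.39 to 4.5, and myeloid cells from 5.38 to 5.51 up to 5.67 to 6.38. Their part was not tested either.

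In jejunum the replication genes had a median difference of 0.17, while all 16 cyclin, kinase and spindle genes were negative, with medians of -0.43 and -0.48. Limma called 0 of the 28, with 3 at an unadjusted p under 0.05 (2.06% and 12.9% of all genes). The median over the 28 was -0.31, and it was -0.53 without wild-type array 1, which carried the highest B cell signal, and -0.20 without wild-type array 2. Cenpe was 4.95, 5.64 and 5.8 in wild type and 4.95, 4.91 and 4.41 in Casp1-null (limma adjusted p = 0.309). The second of these groups had a mean below every jejunal array's median, so the size of the difference is not settled. Cdt1 was 5.88, 6.03 and 6.26 against 6.59, 6.49 and 6.78, with no overlap and a difference of 0.56 (SE 0.139, adjusted p = 0.0609). Cdt1 passed the threshold with low probe sets filtered out (adjusted p = 0.0415) or without the ileal arrays with muscle (0.0414). The groups were apart for 3 genes higher and 4 lower of the 28 (10.3% and 9.24% of all genes).

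In ileum 26 of 28 differences were negative, with a median of -0.28, and for none were the groups apart (4.49% and 4.74% of all genes, higher and lower). Limma called 0 of the 28, with Bub1 at an unadjusted p under 0.05 (0.893% and 6.9% of all genes). The median was 0.02 without wild-type array 2 and 0.06 without both arrays with muscle, so its sign rested on that array. In liver the median was -0.11, with 0 of 28 apart as higher and 6 as lower (8.96% and 11.1% of all genes). Of the 28 genes 15 in wild-type and 16 in Casp1-null liver had group means under the lowest liver array median, so their differences have no settled size.

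Most of these transcripts were lower in liver than in intestine, where fasting and oil cannot be told apart from the tissue. Of 28 genes 24 were lower and 1 higher in liver than in the mean of the segments, where limma called 34.6% of all genes lower and 43.7% higher. For 12 the liver arrays all lay below the intestinal ones (17.7% of all genes). Mki67 was 4.4 to 4.95 on the 6 liver arrays (median 4.8) and 5.8 to 9.53 on the intestinal arrays, at least 4.75-fold lower in liver (log2 -2.70, SE 0.17, limma adjusted p = 1.67e-11). Ccna2 was at least 4.54-fold and Top2a at least 3.40-fold lower, from liver means under the array median. Pcna was 8.79 to 9.07 in liver and 2.06-fold lower.

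E2f1 was the exception. It was 6.48, 6.43 and 6.68 in wild-type liver and 6.14, 6.12 and 5.67 in Casp1-null liver, against 4.42 to 5.2 in duodenum and jejunum and 5.15 to 6.15 in ileum. The liver mean was higher than the intestinal mean (limma adjusted p = 1.41e-08). No fold is given, since the duodenal and jejunal means were under the array median, and the ileal values of 6.15 (wild-type array 2) and 5.73 (Casp1-null array 1) lay within the liver range. Mcm3, Mcm7 and Rrm1 did not pass the threshold, with differences of -0.18, 0.14 and -0.19.

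Other cell cycle genes were also higher in ileum. These were on 3 further lists, chosen by function with earlier results of these data known, and holding none of the 28. Of their 101 measured genes, 77 rose and 1 fell from jejunum to ileum, with a median of 0.66. From duodenum to ileum 83 rose and 2 fell. Of all genes, 14.1% and 11% were called higher and lower in the first comparison and 18.7% and 18.4% in the second. From duodenum to jejunum 16 rose and 1 fell, against 6.83% and 7.8% of all genes. Of 43 genes of mitosis 38 rose from jejunum to ileum, among them the kinase Melk (log2 1.31) and the condensin subunit Ncaph (log2 1.45). Of 33 genes of DNA replication 25 rose, among them Pola2, a subunit of the primase-polymerase (log2 0.60), and the histone chaperone Asf1b (log2 1.24). Of 25 genes of G1 control 14 rose and Mdm2, the ligase that degrades p53, fell (log2 -1.31). Ccnd1, the cyclin D1 gene, rose by log2 1.98 from jejunum and 2.92 from duodenum to ileum (SE 0.208, limma adjusted p = 5.48e-08). Spag5, a spindle protein, went the other way from duodenum to jejunum (limma adjusted p = 1.89e-05), from a mean of 6.48 to one of 4.71, which is under the array median and leaves the size unsettled.

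Between genotypes, 1 of these 101 genes was called in liver, duodenum and ileum and 2 in jejunum. Of all genes, 0.526% and 0.606% were called lower in liver and duodenum, and 0.893% and 2.06% were called in ileum and jejunum, so the counts were near the background. Pttg1, which encodes securin, the inhibitor of sister chromatid separation, was lower in Casp1-null mice in all 4 tissues. Its group mean went from 7.63 to 5.02 in liver (log2 -2.61, SE 0.145, limma adjusted p = 0.000825), with the size not settled because the mean of the Casp1-null group fell below the median of the liver arrays. In duodenum it went from 6.45 to 5.64 (-0.81, adjusted p = 0.00419), in jejunum from 6.73 to 5.69 (-1.04, 0.000506) and in ileum from 7.30 to 6.55 (-0.75, 0.0095). The ileal call was lost when wild-type array 3 or Casp1-null array 3 was left out, with limma adjusted p up to 0.38 over all alternatives. It was also lost without both ileal arrays with muscle and on the 6 ileal arrays alone. Ccnd3, the cyclin D3 gene, rose in jejunum from 6.64 to 7.25 (log2 0.61, SE 0.0982, limma adjusted p = 0.00397), a call lost on the 6 jejunal arrays alone (adjusted p = 0.0973).

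Among themselves the members fell into a tight set and a few that went their own way. Over the 18 intestinal arrays, 23 of the 28 had r of 0.86 to 0.99 with the mean of the other members. The exceptions were Cdt1 (0.01), Pcna (0.17), Rrm2 (0.21), Cdc6 (0.55) and Mcm6 (0.55). As deviations from the group means, r was 0.61 for Cdt1, 0.52 for Pcna, 0.23 for Rrm2, 0.36 for Cdc6 and 0.75 for Mcm6. The non-members most like the members' mean in level were Ndc1, a nuclear pore membrane protein (r = 0.990), Ticrr, a replication initiation factor (0.987), Anln, the cytokinesis protein anillin (0.985), Prr11 (0.985) and Racgap1, a cytokinesis regulator (0.984). In deviations they were Cmss1 (0.975), Cdca3 (0.953), Ticrr (0.947), Trim37 (0.944) and Ndc1 (0.940). These r are over 18 arrays from different segments, and are given without a test. The sample labels give no depth of scraping, so its part in these r was not tested.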

How the data were processed

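Members and lists were chosen with earlier results of these data known. The authors deposited log2 expression values per probe set, normalized with RMA per the submitters' processing notes, and these values were used without further scaling. A version of RMA and a genome build for the array values were not given in the sources used here. Of 35556 probe sets, 21218 carried 1 gene symbol, 1881 several and 12457 none in GEO's platform annotation. Genes with more than 1 probe set (1386) were read from the one with the highest mean. R 4.3.3 with limma 3.58.1 gave each difference and its two-sided moderated test, adjusted by Benjamini-Hochberg over all probe sets. Liver was fitted on its 6 arrays (4 residual degrees of freedom), and the segments together on 18 arrays (12 residual degrees of freedom). For the mean of the segments, arrays with the same genotype and number were averaged, which treats a number as a mouse. Liver against intestine used all 24 arrays. With 3 arrays against 3, the smallest p of an exact permutation test is 0.1. The number of arrays limits the precision. Named beyond the 33 listed genes were up to 4 called genes per further list and comparison by p, the 5 most alike, markers and Casp1. The model was tested on simulated data. Alternatives were a trend with robust fitting, a filter on low probe sets, median centring, the mean over probe sets, a replicate block, own arrays, marker covariates, each genotype alone and arrays left out. Matplotlib 3.10.9 under Python 3.11.15 drew the plots.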

Additional observations from a re-analysis of the deposited data

How the results depend on the processing

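The replicate numbers were not shown to pair the samples. Arrays of the same genotype and number in different segments had correlated deviations above 0.1 in 5 of 18 pairs, and arrays of the same tissue and number in 1 of 12. All other pairs with the same number had them in 4 of 54. Values ran from -0.098 to 0.173 in the first set and from -0.164 to 0.212 in the last. Whether segments with the same number share a mouse is thus not settled. With the replicate block, the count of members called was 0 for liver and 0 for the mean of the segments between genotypes, in place of 1, and 12 from duodenum to jejunum in place of 7. The filter on low probe sets gave 12 for that step and 1 for the jejunal genotypes in place of 0. The smooth muscle covariate gave 11, leaving out both ileal arrays with muscle 15, wild type alone 11 and Casp1-null alone 0. Leaving out both ileal arrays also gave 2 for the duodenal genotypes and 1 for the jejunal ones, and the 6 duodenal arrays alone gave 0. The crypt stem cell marker covariate, chosen after seeing the data, gave 1 from jejunum to ileum, 6 from duodenum to ileum, and turned Mcm3 (-0.13) and Mcm6 (-0.28) from jejunum to ileum. As the slope in place of smooth muscle it gave 15. The cause of these shifts was not tested.

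With 1 array, or 1 number of the segment mean, left out, counts between genotypes ran from 0 to 1 in liver and in the mean of the segments and were 1 in duodenum and 0 in jejunum and ileum. They ran from 1 to 11 from duodenum to jejunum, 21 to 25 from jejunum to ileum and 23 to 24 from duodenum to ileum. They were 25 for liver against intestine, 0 for the interaction and 0 to 1 for the smooth muscle slope. Over all alternatives for genes called with all arrays and probe sets, 2074 values kept direction and call, 160 lost the call and 2 turned. These counts include Pttg1 and Ccnd3, and they leave out calls gained only in an alternative. No detection calls were used, so levels near the array medians have no settled size.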
